A study of Mus musculus with 8 samples.

Results

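The 10 antioxidant defence genes Sod1, Sod2, Cat, Gpx1, Gpx3, Prdx3, Txnrd1, Nfe2l2, Keap1 and Park7 were followed through single-nucleus RNA sequencing of mouse gastrocnemius, a calf muscle made mostly of fast fibres. They were chosen by name, and all 10 were among the 21207 gene symbols that the 8 libraries had in common. The measure was the UMI, a molecular tag that counts each captured RNA molecule once, and levels are given as UMIs per 1000000 UMIs of the library or class (CPM). CPM values were compared between samples for 1 gene at a time and never between genes.

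All mice were C57BL/6 of wild-type genotype, and no group carried a transgene or a drug. Young mice were 3 months old and Old mice, titled Aging in the labels, were 20 months old. Running mice began treadmill training at 11 months and trained for 2 months, and Sedentary mice were their untrained controls. Each of the 4 groups had 2 libraries, replicate 1 made with 10x Genomics droplets and replicate 2 belonging to a second library set, so each comparison rests on 2 libraries against 2. The sex of the mice and the number of animals per library are not given in the sources used here, so the spread between libraries may be technical as well as biological.

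Reactive oxygen species are formed as by-products of respiration, and skeletal muscle forms more of them when it contracts. Superoxide dismutases turn superoxide into hydrogen peroxide, which catalase, the glutathione peroxidases and the peroxiredoxins then remove, while thioredoxin reductase returns thioredoxin, the electron donor of many peroxiredoxins, to its reduced form. NRF2, encoded by Nfe2l2, is the transcription factor that turns on many of these genes through antioxidant response elements, and KEAP1 is the sensor that keeps NRF2 degraded until oxidants or electrophiles modify it. Slow and type IIa fibres are rich in mitochondria, whereas type IIb fibres rely mainly on glycolysis.

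The 10x libraries held between 23327640 and 44389777 UMIs in 10587 to 12991 retained nuclei. The second set held between 4765224 and 9088163 UMIs in 4228 to 4772 retained nuclei. Old replicate 2 stood apart. Of its 4772 nuclei 4193 fell into clusters that the marker genes did not name, against 2217 of 4510 in Young replicate 2, and its scaling factor was 1.48 where the other libraries had 0.88 to 1.02. In the second set Myh4, the myosin gene of type IIb fibres, stood at 11329 CPM in fibro-adipogenic progenitor-like nuclei and 10630 CPM in Type IIb-like nuclei. The same classes of the 10x set had 1028 and 5519 CPM. Whether free muscle RNA gave these levels was not tested. Levels by class are therefore given from the 10x set unless stated. Between 30 and 46 barcodes were shared by any pair of 10x libraries, at most 0.39% of the smaller one, and the second set numbers its nuclei from a counter, so that sharing cannot be read there.

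The promoters of the 4 members that differed between fibre types are shown because these genes are compared in most detail below. The sequences come from RefSeq on GRCm38.p6, 5′ to 3′ on the strand of the gene, and each runs from 250 bases before the annotated start up to the last base before a GENCODE exon of the gene. The start is that of the RefSeq transcript, so for Sod2, Park7 and Gpx3, whose GENCODE spans, given below, begin further upstream, the stretch lies inside the gene's outer bounds. Capitals mark GGGCGG, the GC box bound by Sp-family factors, and AGGTCA, the core site of nuclear receptors. Both strands were searched.
Cat promoter, chr2:103485161-103485403, minus strand: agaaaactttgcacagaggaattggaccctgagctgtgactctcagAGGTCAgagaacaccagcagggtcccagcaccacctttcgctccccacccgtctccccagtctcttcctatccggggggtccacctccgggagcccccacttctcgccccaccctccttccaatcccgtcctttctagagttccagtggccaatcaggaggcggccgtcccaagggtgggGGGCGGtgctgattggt
Sod2 promoter, chr17:13007589-13007816, plus strand: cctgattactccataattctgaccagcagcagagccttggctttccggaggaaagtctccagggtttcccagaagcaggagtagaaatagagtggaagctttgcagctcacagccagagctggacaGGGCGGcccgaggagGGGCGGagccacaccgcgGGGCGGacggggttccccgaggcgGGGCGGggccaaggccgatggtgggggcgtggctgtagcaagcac
Park7 promoter, chr4:150909927-150910171, minus strand: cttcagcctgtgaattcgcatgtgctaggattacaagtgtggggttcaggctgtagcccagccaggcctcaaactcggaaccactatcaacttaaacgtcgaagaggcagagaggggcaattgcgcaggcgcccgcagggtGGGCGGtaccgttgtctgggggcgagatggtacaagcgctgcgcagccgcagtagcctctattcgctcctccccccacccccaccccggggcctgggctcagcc
Gpx3 promoter, chr11:54902604-54902771, plus strand: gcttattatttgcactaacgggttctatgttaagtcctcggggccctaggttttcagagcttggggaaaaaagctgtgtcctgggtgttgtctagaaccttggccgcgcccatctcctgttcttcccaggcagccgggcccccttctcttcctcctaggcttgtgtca

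Sod2 held 4 copies of GGGCGG, Cat and Park7 1 each, and the single copy of Gpx3, 49 bases before the start, lay beyond the stretch printed. Over the 250 bases before the start GGGCGG was found in 9 of the 10 members, all but Gpx1, and in 32.7% of 32851 RefSeq promoters. AGGTCA was found in Cat and Prdx3, and in 14.0% of all promoters. TGTTTAC (forkhead factors, 3.17% of all promoters), the core of the MEF2 motif (3.20%) and CACGTG (E-box, 6.02%) were found in 0 of the 10.

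The core of the antioxidant response element, TGACNNNGC on either strand, was found in 3 members, Nfe2l2 itself, Txnrd1 and Sod1, and in 10.2% of all promoters. It is shown in capitals with its flanks, and the Txnrd1 and Sod1 cores read on the opposite strand.
Nfe2l2, chr2:75704885-75704913, minus strand: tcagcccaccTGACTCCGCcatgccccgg
Txnrd1, chr10:82859104-82859132, plus strand: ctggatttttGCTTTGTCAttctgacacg
Sod1, chr16:90220696-90220724, plus strand: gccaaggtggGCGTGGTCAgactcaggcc

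These are matches of letters, and no binding was measured in these libraries.

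The first question was where in the muscle each gene was found. Nuclei were grouped into 16 classes with at least 20 nuclei in a 10x library, each called after the marker list that its cluster resembled. Clusters were made without the 10 genes, and the order of classes is a description with no test, because classes come from the same nuclei. A level in a class can move with RNA captured per nucleus and with the mix of nuclei inside the class. A level over a whole library can also move with the share of each class, so that fewer nuclei of a type and less RNA per nucleus cannot be told apart there.

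Of the superoxide dismutases, Sod2 (chromosome 17, 13006846 to 13040063, plus strand), the manganese enzyme of the mitochondrial matrix, had its 4 highest class means in muscle fibre nuclei. It had 125 ± 10.9 CPM (SD, n = 4 libraries) in Type IIa/IIx-like nuclei, 102 ± 2.64 (n = 2) in Slow-like nuclei, 86.7 ± 5.81 (n = 4) in Type IIb-like nuclei and 81.4 ± 10.0 (n = 4) at the neuromuscular junction. The lowest Type IIa/IIx-like library, at 110 CPM, lay above the highest Type IIb-like one, at 95.3 CPM, and the ranges of the Slow-like and Type IIa/IIx-like classes did not meet either (101 to 104 against 110 to 137 CPM). The adipocyte-like class had 77.0 ± 4.48 CPM, with a range that touches that of Type IIb-like nuclei, the myotendinous junction 70.6 ± 18.9 CPM and the fibro-adipogenic progenitor-like class 49.9 ± 9.82 CPM. Sod1 (chromosome 16, 90220754 to 90226329, plus strand), the copper-zinc enzyme of the cytosol, ran the other way, with 84.9 ± 26.5 CPM (n = 4) in adipocyte-like nuclei against 21.2 ± 4.38 in Type IIa/IIx-like and 20.1 ± 6.03 in Type IIb-like nuclei, which did not differ beyond their spread. Sod1 overlaps the gene Scaf4 on the opposite strand, and whether its UMIs were counted by strand is not stated.

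Cat (chromosome 2, 103453849 to 103485160, minus strand) encodes catalase, the peroxisomal enzyme that splits hydrogen peroxide. Its level in the adipocyte-like class was 305 CPM in Old replicate 1, 315 in Young replicate 1, 326 in Running replicate 1 and 269 in Sedentary replicate 1. These values lay above those of every other class, of which the highest was a Slow-like library at 168 CPM. Slow-like nuclei followed with 140 ± 39.4 CPM (n = 2) and Type IIa/IIx-like nuclei with 94.4 ± 19.1 (n = 4), while Type IIb-like nuclei, at 32.8 ± 6.78 (n = 4), came next to last of the 16 classes. Adipocyte-like nuclei of Old replicate 2 had 127 CPM from 35 UMIs, the highest mean of any named class in the second set as well.

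The glutathione peroxidases, selenoproteins that spend glutathione to reduce peroxides, were at their highest in different classes, and in Type IIb-like nuclei Gpx1 was last of the 16 classes and Gpx3 the 8th, at 26.6 ± 5.99 CPM. Gpx1 (chromosome 9, 108338903 to 108340343, plus strand), the cytosolic form, was at its highest in macrophage-like nuclei, with 49.2 CPM in Old replicate 1, 131 in Young replicate 1, 14.8 in Running replicate 1 and 34.7 in Sedentary replicate 1. That mean of 57.5 ± 51.2 CPM is not set apart from the next class, T cell-like nuclei at 29.6 ± 9.91 (n = 3), and Type IIb-like nuclei had 2.23 ± 1.48. Gpx3 (chromosome 11, 54902453 to 54910377, plus strand), the form secreted into plasma, had its highest class mean in muscle stem cell-like nuclei, with 215 CPM in Old replicate 1, 573 in Young replicate 1, 191 in Running replicate 1 and 124 in Sedentary replicate 1. The mean of 276 ± 202 CPM rests largely on Young replicate 1, and in Sedentary replicate 1 adipocyte-like nuclei were higher, at 148 CPM, so this class is not set apart from the next. Tenocyte-like nuclei had 141 ± 58.7 CPM (n = 3), fibro-adipogenic progenitor-like nuclei 103 ± 74.8 (n = 4) and adipocyte-like nuclei 99.7 ± 52.4 (n = 4), ranges that overlap with one another. In adipocyte-like nuclei Gpx3 had 25.4 CPM in Running replicate 1 (41 UMIs, exact 95% Poisson interval 18.2 to 34.5), far from the 111, 114 and 148 CPM of the Old, Young and Sedentary replicates 1.

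**Figure D1:**
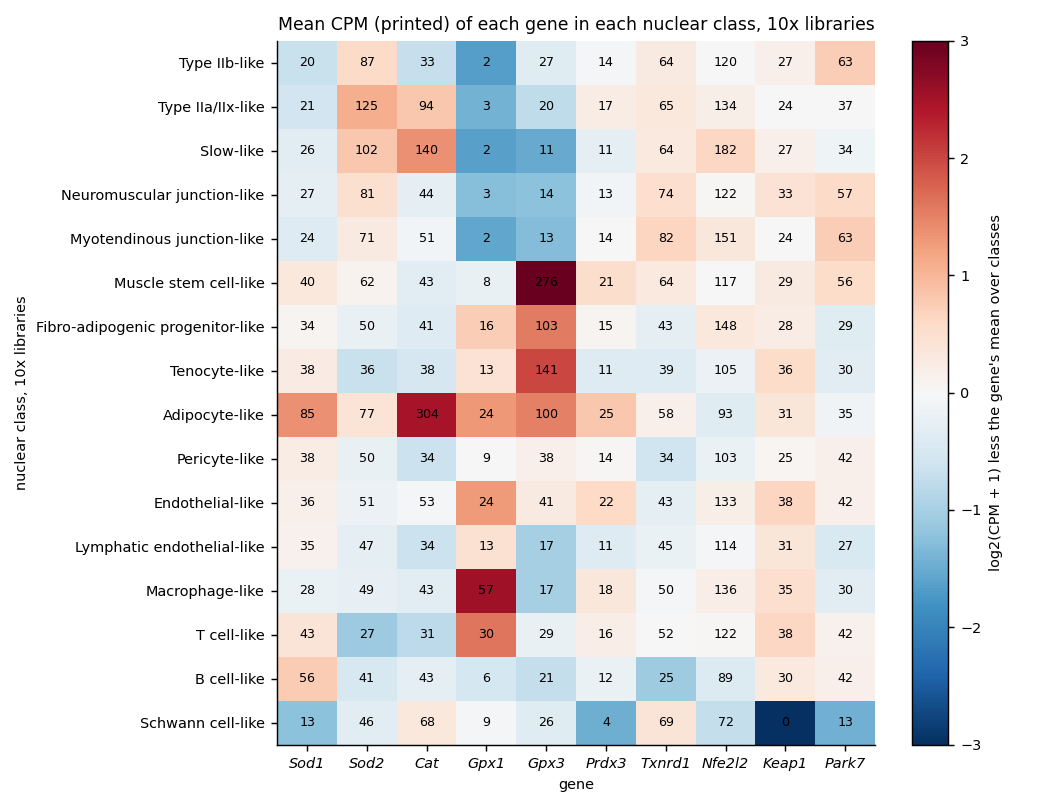
Mean CPM of the 10 genes (columns) in the 16 nuclear classes of the 10x libraries (rows), printed in each cell, with colour for log2(CPM + 1) less the gene's mean over classes. Cat is deepest in the adipocyte-like row at 304 CPM, Gpx3 in the muscle stem cell-like row at 276 CPM, Gpx1 in the macrophage-like row, and Sod2 in the Type IIa/IIx-like row at 125 CPM.

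In the thioredoxin arm, both genes are given by order of class mean, which sets the ends apart by construction. Prdx3 (chromosome 19, 60864051 to 60874556, minus strand), the peroxiredoxin of mitochondria, ran from 25.4 ± 10.3 CPM in adipocyte-like nuclei (n = 4) through 16.6 ± 3.5 in Type IIa/IIx-like and 13.6 ± 1.15 in Type IIb-like nuclei to 4.42 ± 6.25 in Schwann cell-like nuclei (n = 2, 1 UMI in all). Txnrd1 (chromosome 10, 82833951 to 82897712, plus strand), the cytosolic thioredoxin reductase, had 81.9 ± 43.4 CPM at the myotendinous junction, 74.4 ± 10.8 at the neuromuscular junction, 65.0 ± 3.69 in Type IIa/IIx-like and 63.6 ± 13.1 in Type IIb-like nuclei, and 24.5 ± 9.09 in B cell-like nuclei (n = 2). For Txnrd1 the Type IIa/IIx-like range, 60.2 to 68.7 CPM, did not meet that of fibro-adipogenic progenitor-like nuclei, 41.1 to 48.5 CPM. B cell-like nuclei had 18.1 CPM in Young replicate 1 and 30.9 CPM in Old replicate 1, from only 3 and 4 UMIs. The exact 95% Poisson interval of that Old value, 8.43 to 79.2 CPM, covers the Type IIa/IIx-like range. Txnrd1 shares its span with Eid3 on the same strand and with Gm38560 on the opposite strand, so part of its counts is uncertain.

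The regulators were found in nearly every class. Nfe2l2 (chromosome 2, 75675513 to 75704641, minus strand) had between 72.1 ± 35.5 CPM in Schwann cell-like nuclei (n = 2) and 182 ± 16.4 in Slow-like nuclei (n = 2), with 134 ± 16.8 in Type IIa/IIx-like and 120 ± 25.3 in Type IIb-like nuclei (n = 4 each), ranges that overlap. Keap1 (chromosome 9, 21229730 to 21239361, minus strand) had 38.4 ± 11.8 CPM in endothelial-like nuclei and between 23.8 and 37.5 CPM in the other classes, except Schwann cell-like nuclei, where 0 UMIs were counted in 37 nuclei of Old replicate 1, which allows up to 32.6 CPM by the exact Poisson interval, and in 27 nuclei of Sedentary replicate 1, which allows up to 86.6 CPM. Keap1 overlaps the antisense gene Gm16754.

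Park7 (chromosome 4, 150897133 to 150914437, minus strand) encodes DJ-1, a cysteine-bearing oxidant sensor that also acts as a deglycase. It had 63.4 ± 20.7 CPM in Type IIb-like nuclei, 63.3 ± 22.3 at the myotendinous junction, 57.2 ± 21.5 at the neuromuscular junction and 55.5 ± 19.97 in muscle stem cell-like nuclei (n = 4 each). These 4 classes overlap. Type IIa/IIx-like nuclei had 37.3 ± 12.2 CPM, Slow-like nuclei 34.4 ± 2.67 (n = 2) and fibro-adipogenic progenitor-like nuclei 29.4 ± 5.53.

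Across the 16 class means of log2(CPM + 1), which share libraries and, for rare classes, few UMIs, the genes most like each member among 15471 were named by Pearson r. Park7 was followed most closely by Guk1 (r = 0.96), which encodes guanylate kinase, by Pgk1 (0.94), a glycolytic enzyme, and by Cisd1 (0.94), an iron-sulphur protein of the outer mitochondrial membrane. Cat was followed by Slc27a1 (0.90), a fatty acid transporter, and by Apol6 and 4931428L18Rik (0.88 each). Gpx1 was closest to Ifngr1 (0.93), an interferon gamma receptor chain, then Zfp995 (0.93) and Dhx58 (0.92). Gpx3 was closest to Kif7 (0.92), Gm49484 (0.91) and Steap2 (0.89), and Sod2 to Dcaf11 (0.95), 2700097O09Rik (0.95) and Clpb (0.94). Sod1 was closest to Smarcc2 (0.96), Kdm2a (0.95) and Polr1d (0.95), Prdx3 to Nsun4 (0.95), Ap4m1 (0.95) and Drg2 (0.92), and Txnrd1 to Tsacc (0.91), Rad52 (0.88) and Zfp563 (0.86). Nfe2l2 was closest to Epc1 (0.84), Twf2 (0.81) and Gm41664 (0.81), and Keap1 to Lman1, Cnot7 and Ankrd13c (0.98 each). Among the members themselves Keap1 and Park7 had r = 0.85, Sod1 and Keap1 0.82 and Sod2 and Cat 0.70, while Sod2 and Gpx1 had the lowest, at -0.57. Schwann cell-like nuclei had the lowest mean of Keap1 (0 UMIs), Park7 and Sod1 (13.2 CPM from 3 UMIs each). The same class was lowest for Prdx3 (4.42 CPM from 1 UMI) and Nfe2l2 (72.1 CPM from 13 UMIs). The r values of these members, also with genes outside the members, may rest largely on that class, and r without it was not computed.

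The second question was how the genes differ between fibre types. Here the clusters only set which nuclei counted as muscle fibre, 1082 of them in Old replicate 2, and myosin UMIs set the fibre type. Nuclei of muscle fibre clusters with at least 3 UMIs of Myh1, Myh2, Myh4 and Myh7 were assigned to 1 of these myosin genes when it held over 60% of them. Myh7 marks slow fibres, Myh2 type IIa, Myh1 type IIx and Myh4 type IIb. Sums per library and fibre type were compared with Myh4-dominant nuclei of the same library with edgeR, over 11383 genes. Nuclei numbered 616 to 7052 per library for Myh4, 40 to 862 for Myh1 (7 libraries), 64 to 864 for Myh2 (6 libraries) and 26, 135 and 343 for Myh7 (3 libraries). Called members (adjusted p under 0.05) were 3 of 10 for Myh1, 4 of 10 for Myh2 and 3 of 10 for Myh7, against 18.8% of all genes tested for Myh1 (8.47% higher and 10.3% lower), 30.4% for Myh2 (14.2% and 16.3%) and 23.8% for Myh7 (11.3% and 12.5%), so the count of members lies not far above the background. Which members moved is described in turn.

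Cat rose in all 3 other fibre types. In Myh4-dominant nuclei of the 10x set the Old library had 35.6 CPM, Young 24.96, Running 34.4 and Sedentary 41.8. In Myh1-dominant nuclei of the same libraries it had 96.8, 74.6, 96.6 and 95.4 CPM. In Myh2-dominant nuclei it had 130, 55.3, 117 and 129 CPM, and in Myh7-dominant nuclei 117 CPM in Old and 163 CPM in Sedentary. The Myh4-dominant values of these libraries therefore lay below every value of the other fibre types. The log2 difference from Myh4-dominant nuclei was 1.21 for Myh1 (SE 0.15, edgeR adjusted p 2.03e-07), 1.41 for Myh2 (SE 0.15, adjusted p 5.34e-09) and 1.55 for Myh7 (SE 0.21, adjusted p 4.95e-07). Cat was higher in 7 of 7, 6 of 6 and 3 of 3 libraries.

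Park7 fell in all 3. In the 10x set it had 76.7 CPM in Myh4-dominant nuclei of Old, 57.1 of Young, 79.9 of Running and 34.6 of Sedentary. In Myh1-dominant nuclei it had 43.5, 37.3, 41.9 and 21.99 CPM, and in Myh2-dominant nuclei 46.0, 36.9, 30.4 and 21.6 CPM. The groups overlap across libraries, because Sedentary replicate 1 was low in every fibre type, but within a library the Myh4-dominant value was always the highest. The log2 difference was -0.86 for Myh1 (SE 0.14, edgeR adjusted p 3.09e-05), -0.97 for Myh2 (SE 0.15, adjusted p 5.11e-06) and -0.82 for Myh7 (SE 0.24, adjusted p 0.010), lower in 7 of 7, 6 of 6 and 3 of 3 libraries. The Myh7 call was lost without Old replicate 1, where the value was -0.58 (adjusted p 0.29), and with DESeq2, where it was -0.67 (adjusted p 0.063).

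Sod2 rose in Myh1- and Myh2-dominant nuclei. Its Myh4-dominant levels in the 10x set were 83.8 CPM for Old, 85.5 for Young, 82.9 for Running and 97.6 for Sedentary, and its Myh2-dominant levels were 123, 129, 135 and 131 CPM. These ranges do not overlap. The log2 difference was 0.46 for Myh1 (SE 0.12, edgeR adjusted p 0.0066, higher in 6 of 7 libraries) and 0.41 for Myh2 (SE 0.13, adjusted p 0.013, higher in 6 of 6). For Myh7 the fit gave 0.03 (SE 0.19), although Sod2 was higher in 3 of 3 libraries. Without Old replicate 1 both calls were lost, at 0.35 and 0.33 (adjusted p 0.15 each), and with no filter on low counts they were lost at 0.34 and 0.25. The Myh2 call was also lost without Running replicate 1 (0.37) and without Sedentary replicate 1 (0.40).

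Gpx3 fell in Myh2- and Myh7-dominant nuclei. It had 31.6, 30.1, 22.5 and 18.3 CPM in Myh4-dominant nuclei of Old, Young, Running and Sedentary replicates 1, and 12.7, 23.0, 8.19 and 8.38 CPM in Myh2-dominant nuclei, which rest on 31, 5, 7 and 19 UMIs. The log2 difference was -1.05 for Myh2 (SE 0.25, edgeR adjusted p 0.0011, lower in 6 of 6 libraries), -1.25 for Myh7 (SE 0.44, adjusted p 0.035, lower in 2 of 3) and -0.39 for Myh1 (SE 0.21, adjusted p 0.23, lower in 4 of 7). With a stricter myosin rule (5 UMIs and over 80% from 1 gene) the Myh1 value was -0.63 and passed the threshold (adjusted p 0.021). The Myh7 call was lost without Old, Running or Sedentary replicate 1 (-1.16, -1.17 and -0.97), with RLE scaling (-1.11) and with DESeq2 (-0.98).

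The other 6 members were not called in any fibre type. Nfe2l2 came nearest, at 0.40 for Myh7 (SE 0.19, edgeR adjusted p 0.14), and 0.56 with RLE scaling, where it passed the threshold (adjusted p 0.036). Sod1, Prdx3, Txnrd1 and Keap1 lay between -0.27 and 0.08 in the 3 contrasts, and Gpx1 between -0.08 and 0.27 with SEs of 0.41 to 0.82, since it rests on 184 UMIs in the Myh4-dominant nuclei of the 10x set and 21, 17 and 3 in the others.

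**Figure D2:**
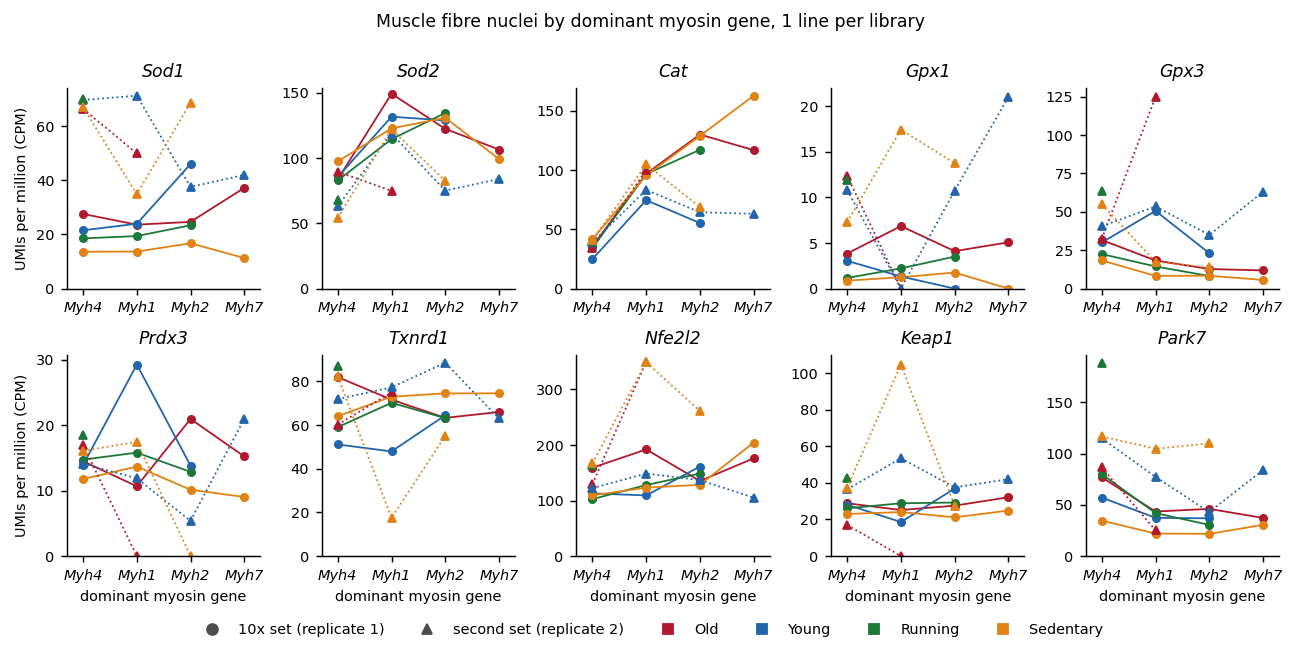
CPM of each gene in nuclei dominated by Myh4, Myh1, Myh2 or Myh7, with 1 line per library (circles and solid lines, 10x set; triangles and dotted lines, second set; colour, group). In the 7 libraries with a second fibre type of at least 20 nuclei, Cat lies higher in each of the others than in Myh4. These log2 differences are 0.69 to 1.96. Park7 lies lower in each of the others than in Myh4. Running replicate 2 is shown for Myh4 only, since no other fibre type reached 20 nuclei there.

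The second library set gives a partial check of the fibre types, limited by its Myh4 level outside Type IIb-like nuclei and by small groups. Alone it had 24 Cat UMIs in Myh1-dominant nuclei against 602 in Myh4-dominant ones, and 0 members were called, against 1.65%, 4.62% and 2.73% of its 7939 genes for Myh1, Myh2 and Myh7. Its values for Cat were 1.08, 0.65 and 0.33, and for Park7 -0.70, -1.08 and -0.74. The 10x set alone gave 1.34, 1.65 and 1.75 for Cat, -0.84, -0.91 and -0.78 for Park7, 0.48, 0.48 and 0.07 for Sod2, and -0.50, -1.17 and -1.53 for Gpx3. The difference between sets was tested as an interaction, which called 0 members, against 0.946% of all genes for Myh1 and 2.05% for Myh2. For Cat in Myh2-dominant nuclei that difference was -1.02 (SE 0.33, edgeR adjusted p 0.12).

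The wider pathway was read from 4 lists with 70 measured genes, of which 58 passed the filter in the fibre type fit. Of these, 5 rose and 7 fell for Myh1 (20.7%), 12 rose and 10 fell for Myh2 (37.9%) and 8 rose and 10 fell for Myh7 (31.0%), shares close to those of all genes. The median log2 difference over the 58 genes was -0.04, 0.18 and 0.08, against -0.08, -0.06 and -0.08 over all genes.

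Among 9 other superoxide and peroxide genes, 4 rose and 2 fell in Myh2-dominant nuclei. The peroxiredoxins moved in different directions there, with Prdx2 at 1.14 (SE 0.24) and Prdx6 at 0.90 (SE 0.22) up and Prdx1 down at -0.61 (SE 0.15). The selenoproteins split too, with Selenop, the selenium carrier of plasma, at 0.72 and the small muscle selenoprotein gene Selenow at -0.98. Selenow fell in all 3 contrasts (-0.72, -0.98 and -0.97) and Prdx1 in Myh1 as well (-0.46). Selenop rose for Myh1 too, at 0.64, and Prdx6 for Myh7, at 0.87.

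Among 19 thioredoxin and glutathione genes, 3 rose and 1 fell for Myh1, 6 rose and 3 fell for Myh2, and 3 rose and 2 fell for Myh7. Nnt, the mitochondrial transhydrogenase that makes NADPH, had the largest rises of the named list genes, 1.45 for Myh1, 2.99 for Myh2 and 3.34 for Myh7 (SE 0.20 to 0.25). Gss, glutathione synthetase, rose by 1.01 and 2.09 for Myh1 and Myh2, and Slc7a11, the cystine importer, by 0.52, 0.89 and 2.01. Msrb3, a methionine sulphoxide reductase, fell by 0.66, 1.21 and 1.33, whereas its relative Msrb1 rose for Myh7 at 1.08. The reductases Txnrd2 (-0.998 for Myh2 and -1.24 for Myh7) and Gsr (-0.58 for Myh2) also fell.

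Among 19 genes of the NRF2 circuit and its targets, 0 rose and 3 fell for Myh1, 1 rose and 3 fell for Myh2, and 3 rose and 4 fell for Myh7. Me1, malic enzyme, fell in all 3, at -0.97, -1.43 and -0.88. For Myh7 the target genes Nqo1 (1.40, SE 0.28), Gsta4 (1.78, SE 0.53) and Abcc1 (0.60, SE 0.18) rose, while Tkt (-1.28) and Rbx1 (-0.88), a subunit of the ligase that degrades NRF2, fell. Mgst1 rose for Myh2 at 1.60, and Cul3, another subunit of that ligase, fell at -0.45. Mafg, a partner of NRF2 on DNA, fell for Myh1 (-0.56) and Myh2 (-0.54), and Ftl1, a ferritin chain, for Myh1 (-0.71).

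Of 11 oxidant-related genes, 1 rose and 1 fell for Myh1, 1 rose and 2 fell for Myh2, and 1 rose and 3 fell for Myh7. Ppargc1a, the coactivator of mitochondrial biogenesis, rose by 0.64 and 0.98 for Myh1 and Myh2 and fell by 0.59 for Myh7. Maoa, a peroxide-forming monoamine oxidase, fell by 1.54 for Myh1 and 1.89 for Myh2, and its relative Maob fell by 1.39 for Myh7. Ucp3 fell by 0.49 for Myh2 and 1.72 for Myh7, and Sesn3, a sestrin, rose for Myh7 by 1.28.

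The third question was whether the genes changed with age. Over all nuclei, edgeR called 0 of 20320 genes between Old and Young, 0 members among them (0%), and DESeq2 called 0 as well. At an unadjusted p under 0.05 there were 557 genes, 2.74% of those tested, and again 0 members. Every member had a fitted log2 difference below 0, with a median of -0.53 against 0.19 over all genes, and edgeR adjusted p-values of 0.69 to 0.87. That shared sign was not seen in the CPM of the 10x pair. There Sod1, Sod2, Cat, Prdx3, Txnrd1, Nfe2l2 and Park7 were higher in Old, and Gpx1, Gpx3 and Keap1 were lower.

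Gpx3 had the lowest fitted value. Its levels were 49.7 CPM in Old and 82.1 in Young in the 10x set, and 46.6 and 58.9 CPM in the second set. Both pairs point the same way, and the fit gave -0.94 on the log2 scale (SE 0.54, adjusted p 0.69 by edgeR). Keap1 followed at -0.75 (SE 0.49), although its 10x levels, 29.2 in Old and 29.4 in Young, are alike and the difference comes from the second set, at 23.0 and 42.8 CPM. For Sod2 the fit gave -0.60 (SE 0.38), for Park7 -0.58 (SE 0.49), for Prdx3 -0.56 (SE 0.47), for Sod1 -0.50 (SE 0.43) and for Gpx1 -0.47 (SE 0.62). Txnrd1 had -0.35 (SE 0.46), Nfe2l2 -0.19 (SE 0.49) and Cat -0.15 (SE 0.41).

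The values moved with single libraries, and 5 of the 10 were above 0 without Old replicate 2. Without that library Gpx3 was at -0.51, Sod2 at -0.37, Keap1 at -0.15, Prdx3 at -0.13 and Sod1 at -0.01, while Park7 (0.08), Gpx1 (0.09), Cat (0.11), Txnrd1 (0.24) and Nfe2l2 (0.38) were above 0. Other libraries moved some members as far, since Gpx3 was at -0.28 without Young replicate 1, and Sod2 at -0.23 and Cat at 0.34 without Young replicate 2. Cat was also above 0 with library size only (0.25), as were Nfe2l2 (0.17) and, at 0.00, Txnrd1, but that scaling moved the median of all genes to 0.61. In raw CPM, 3 members were lower in Old in both pairs, Gpx3, Gpx1 and Keap1, the last 2 with a log2 difference of -0.01 in the 10x pair. Park7 had been picked by the study on these samples as a gene lowered with age, so its direction is no independent evidence. The study also reported a loss of histone lactylation at its promoter in old muscle, which was not examined here. Park7 had 58.4 CPM in Old and 47.8 in Young in the 10x set, and 100.1 and 180 in the second set. The pairs run in opposite directions.

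**Figure D3:**
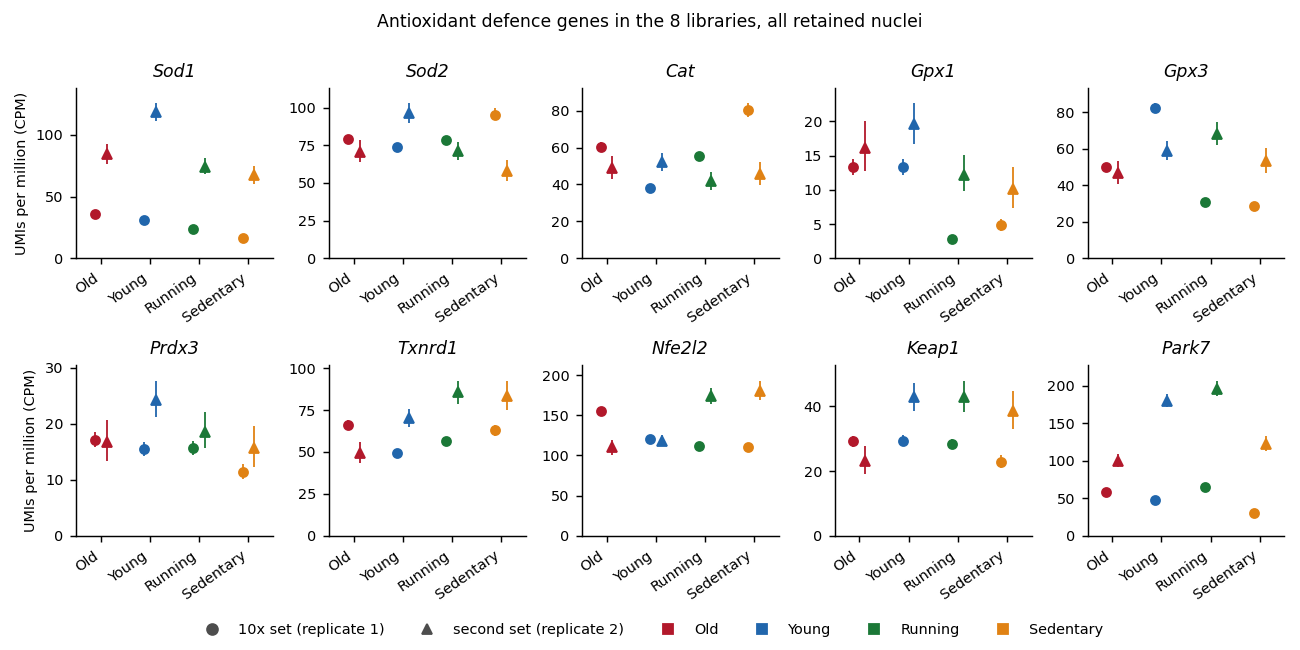
CPM of each gene over all retained nuclei in the 8 libraries, by group (horizontal axis and colour), with exact 95% Poisson intervals that cover counting error only. Circles are 10x libraries and triangles the second set; for Sod1 and Park7 every triangle lies above every circle, at 67.3 to 118 against 16.6 to 36.0 CPM and 100.1 to 197 against 30.05 to 64.9 CPM.

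Within classes the lower Gpx3 level of the Old 10x library was not spread evenly. Muscle stem cell-like nuclei had 215 CPM in Old (154 UMIs, exact 95% Poisson interval 182 to 252) and 573 in Young (635 UMIs, 529 to 619). Fibro-adipogenic progenitor-like nuclei had 84.4 CPM (78.3 to 90.7) and 213 CPM (203 to 225), and Type IIa/IIx-like nuclei 14.8 CPM (11.5 to 18.7) and 40.9 CPM (32.1 to 51.3). These intervals do not meet, but each stands for 1 library against 1 other and has no replicate check. By dominant myosin, Old replicate 1 had 286 Myh1- and 593 Myh2-dominant nuclei and Young replicate 1 had 244 and 67. The part of that mix in the Type IIa/IIx-like difference was not tested. Macrophage-like nuclei went the other way, with 29.4 CPM in Old (49 UMIs, 21.8 to 38.9) and 8.59 in Young (7 UMIs, 3.45 to 17.7), intervals that do not meet either. Pericyte-like nuclei, at 62.4 and 31.9 CPM, and Type IIb-like nuclei, at 33.2 and 29.7 CPM, were also higher in Old, and Gpx3 was lower in Old in 9 of 14 classes of the 10x set. In the second set the 3 classes that could be compared, Type IIb-like, Type IIa/IIx-like and Slow-like, had Gpx3 higher in Old, at log2 differences of 0.36 to 1.19 that rest on 3, 8 and 3 UMIs in Old replicate 2, while all nuclei together had it lower.

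Where both library sets held at least 20 nuclei of a class in all 4 libraries, the class was fitted on its own. Between Old and Young these were Type IIb-like (83 genes called, 0.545%), Type IIa/IIx-like (1 gene, 0.0077%) and myotendinous junction-like nuclei (0 genes, 0%), and 0 members were called in any. Old replicate 2 gave 39, 180 and 26 nuclei to these fits. In the second set the class names did not follow the myosin calls. Young replicate 2 had 1451 Type IIa/IIx-like nuclei, but 71 Myh1- and 174 Myh2-dominant ones. Nfe2l2 in Type IIb-like nuclei had the smallest p-value of the 27 member tests, at 0.68 on the log2 scale (SE 0.38, adjusted p 0.77 by edgeR). Gpx3 had -0.81 (SE 0.60) in Type IIa/IIx-like and 0.19 (SE 0.45) in Type IIb-like nuclei, and Cat had 0.46 (SE 0.33), 0.21 (SE 0.47) and, at the myotendinous junction, 0.85 (SE 0.60).

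The 70 list genes gave 0 calls between Old and Young over all nuclei, with 2 at an unadjusted p under 0.05, and their median log2 difference was -0.11. The smallest p-values of each list belonged to Selenow (-1.07, SE 0.47), Msrb1 (-1.15, SE 0.47), Tkt (1.495, SE 0.59) and Nox4 (0.99, SE 0.46), all at an edgeR adjusted p of 0.69.

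The last question was whether treadmill running changed these genes. Over all nuclei edgeR and DESeq2 each called 0 of 20320 genes for Running against Sedentary, and 98 (0.482%) had an unadjusted p under 0.05, with 0 members among them. The median of the members was 0.13, against -0.04 over all genes, with 6 of 10 above 0.

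Park7 stood out in size. It had 64.9 CPM in Running and 30.05 in Sedentary in the 10x set, a ratio of 2.16, and 197 and 122 CPM in the second set, a ratio of 1.61. Running was the higher of each pair, and the fitted log2 difference was 0.88 (SE 0.49, unadjusted p 0.11, and 0.999977 after adjustment in edgeR), so it did not pass the threshold. It was 0.46 without Sedentary replicate 1 and 1.41 without Sedentary replicate 2. In the 10x set Park7 was higher in Running in 10 of 10 classes, at log2 differences of 0.16 to 1.42 with a median of 1.11, and in the second set in 4 of 6 classes. The classes of a library share its depth and any free RNA, so they are not replicates. Sedentary replicate 1 had 30.05 CPM of Park7, the lowest of all 8 libraries, and the lowest UMI count per nucleus of the 10x set (median 1664 against 2790 to 3001). The part of that depth in the result was not tested.

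**Figure D4:**
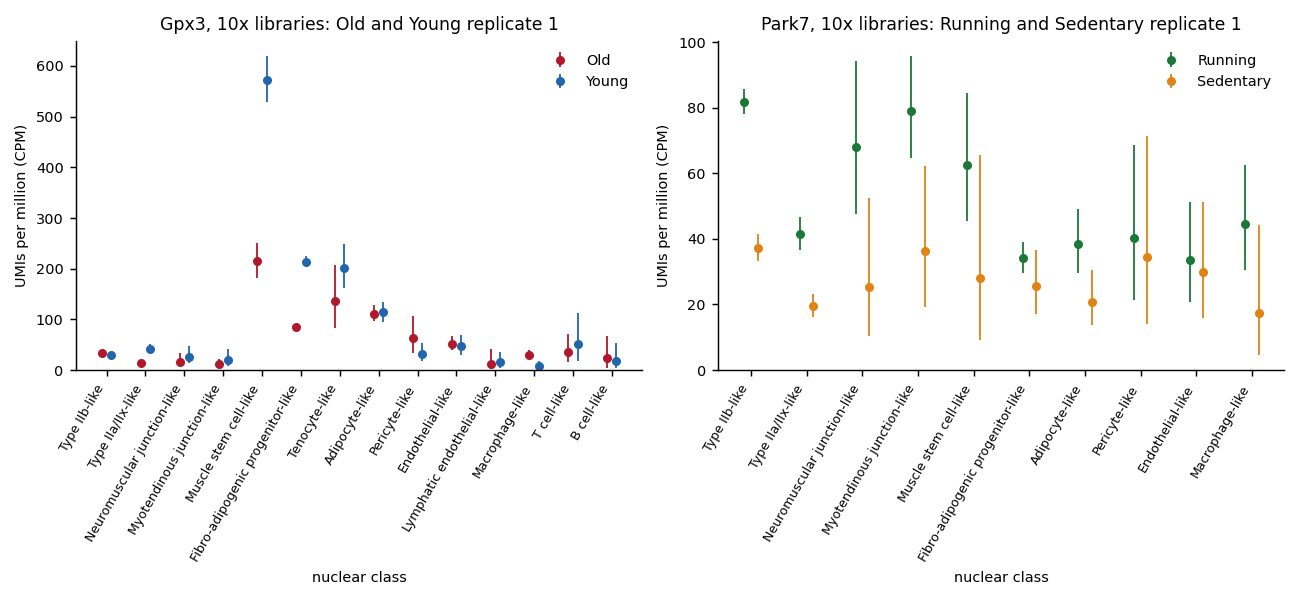
CPM by nuclear class in single 10x libraries with exact 95% Poisson intervals, for Gpx3 in Old and Young replicates 1 (left) and Park7 in Running and Sedentary replicates 1 (right). Gpx3 in Young reaches 573 CPM in muscle stem cell-like nuclei against 215 in Old, and Park7 is higher in Running in each of the 10 classes shown.

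Fitted class by class, Park7 had 0.88 in Type IIb-like nuclei (SE 0.35, unadjusted p 0.014 and edgeR adjusted p 0.97). Its CPM there was 81.8 in Running and 37.2 in Sedentary in the 10x set, and 195 and 113 in the second. Values elsewhere were 0.85 (SE 0.44) in Type IIa/IIx-like, 0.81 (SE 0.42) in fibro-adipogenic progenitor-like, 0.99 (SE 0.58) in neuromuscular junction-like and 0.35 (SE 0.49) in myotendinous junction-like nuclei. With each library left out the values ran from 0.59 (without Sedentary replicate 1) to 1.25 (without Sedentary replicate 2) in Type IIb-like nuclei and from 0.35 to 1.53, for the same libraries, in Type IIa/IIx-like nuclei. All 5 classes have the same sign and 0 passed the threshold, beside 0.131% of genes called in Type IIb-like, 0.181% in fibro-adipogenic progenitor-like and 0.077% in neuromuscular junction-like nuclei and 0% in the other 2 classes.

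Cat was lower in Running in both pairs, at 55.1 against 80.3 CPM and 41.8 against 45.5 CPM, with a fitted log2 difference of -0.32 (SE 0.40). The share of oxidative fibre nuclei differed along with it, since the Sedentary 10x library held 2279 Type IIa/IIx-like and 391 Slow-like nuclei of 10587 against 1387 and 7 of 12991 in Running, and the part of that share in the result was not tested. In the second set the counts were 734 and 68 of 4234 in Sedentary and 647 and 94 of 4228 in Running. These names did not follow the myosin calls, since Sedentary replicate 2 had 51 Myh1- and 64 Myh2-dominant nuclei beside 3508 Myh4-dominant ones. In Running replicate 2, 3655 of the 3672 nuclei assigned to a myosin gene were Myh4-dominant. Each other myosin gene was under the limit of 20 nuclei there. The counts by class name therefore give no share of oxidative fibres in that set. Within Type IIa/IIx-like nuclei the fitted value for Cat was -0.32 (SE 0.30), within Type IIb-like nuclei -0.21 (SE 0.39) and at the myotendinous junction -1.05 (SE 0.51). By dominant myosin, Sedentary replicate 1 had 848 Myh1- and 864 Myh2-dominant nuclei and Running replicate 1 had 862 and 211. The part of that mix in the Type IIa/IIx-like value was not tested. The other 8 members had fitted values from -0.10 to 0.37 over all nuclei, of which Sod1, Prdx3, Gpx3 and Keap1 were higher in Running in both pairs by 0.10 to 0.52 on the log2 scale of CPM, and Sod2, Gpx1, Txnrd1 and Nfe2l2 had pairs of opposite sign. By class, Gpx3 was higher in Running in 8 of 10 classes of the 10x set and in 6 of 6 of the second set. The log2 differences ran from -2.55, in the adipocyte-like nuclei described above, to 2.09. That last value, in Slow-like nuclei of the second set, rests on 9 UMIs in Running and 1 in Sedentary. Neuromuscular junction-like nuclei of that set had 6 and 1 UMIs, and myotendinous junction-like nuclei had 46.0 and 43.7 CPM. Classes of a library are not replicates.

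**Figure D5:**
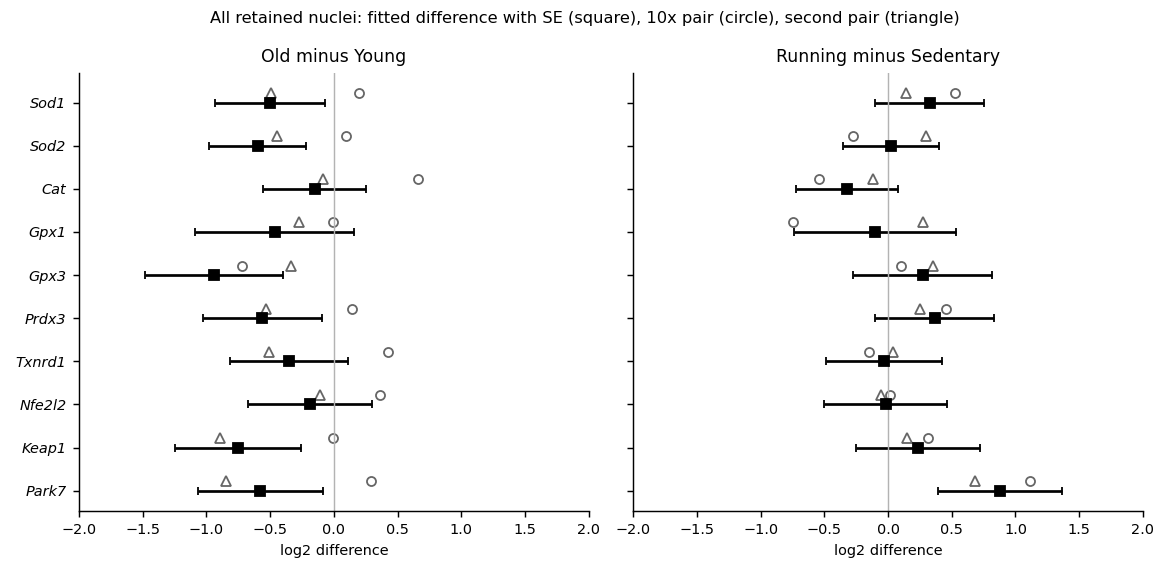
Log2 differences over all retained nuclei for Old minus Young (left) and Running minus Sedentary (right), with the fitted value and its SE as a square, the 10x pair of CPM values as a circle and the second pair as a triangle. The fit rescales libraries, chiefly Old replicate 2, so a square need not lie between its pairs; Park7 has all 3 marks above 0 on the right, and Gpx3 all 3 below 0 on the left.

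The 70 list genes again gave 0 calls over all nuclei, with 0 at an unadjusted p under 0.05, and their median was 0.16. The smallest p-values of each list belonged to Prdx4 (0.98, SE 0.62), Nnt (-1.11, SE 0.67), Me1 (0.70, SE 0.48) and Xdh (0.72, SE 0.38), all at an edgeR adjusted p of 0.999977. The comparisons by age and by running have no library in common.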

How the data were processed

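Each library's deposited matrix holds unnormalised UMI counts for genes by nuclei, made by the authors with Cell Ranger 6.1.2 on mm10 per the labels (10x set) and with PISA per the methods (second set). The treatment of intronic reads is not given in the sources used here. Per the labels, the muscle was frozen before nuclei were taken.

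Nuclei with over 200 and under 6000 genes and under 6% mitochondrial UMIs were retained (64803 of 65280). The 12 mitochondrial and 87 ribosomal protein genes left the sums. Doublets were kept. Each library set was clustered alone (scanpy 1.11.5, leidenalg 0.10.2, 2000 variable genes, 30 components, 20 neighbours, resolution 1.0) without the members and list genes, and named from 20 marker lists by limits set after the clusters had been seen: at least 3 detected markers, and leading genes with a median span under 300 kb.

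Counts were summed per library, class or fibre type, with at least 20 nuclei, and tested with edgeR 4.0.16 (R 4.3.3, quasi-likelihood F-test, TMM, filterByExpr, Benjamini-Hochberg over all genes tested, two-sided, threshold 0.05). Terms were group and library set, or library and fibre type. An SE is the log2 difference over the root of F. Over all nuclei 3 residual degrees of freedom remained. Alternatives were RLE scaling, library size only, DESeq2 1.42.0, no filter, no set term, only the 4 libraries compared, other nuclei, a gene length correction, other clusters, other myosin rules and each library left out. The second set alone and the interaction were added after the data had been seen. The fits were also run on simulated counts with known changes. These had no library set effect, unlike the data, and no result above rests on them. Coordinates are GENCODE vM21 on GRCm38. Named genes were the 10 members, the list genes called with the 3 smallest p-values per list, contrast and direction (the smallest p-value where a list had no call), and the 3 genes most like each member with at least 200 UMIs. Members and lists were chosen with earlier results of these data known.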

Additional observations from a re-analysis of the deposited data

Results flagged for a closer look

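Txnrd1 in Myh1-dominant nuclei of Sedentary replicate 2 lay far from the other libraries, with a log2 difference from Myh4-dominant nuclei of -2.24 where the other 6 libraries had -0.19 to 0.32. That value rests on 1 UMI in 51 nuclei, at 17.5 CPM against 82.3 CPM in the Myh4-dominant nuclei. It was 1 of 20 groups of libraries examined for such a gap, and chance gives about 1 in 20.

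Nfe2l2 had opposite signs in the fibre classes after running, at small differences whose counting intervals overlap. In both library sets it was lower in Running than in Sedentary in Type IIb-like nuclei, at log2 differences of -0.11 and -0.10, and higher in Type IIa/IIx-like nuclei, at 0.03 and 0.02. The mean in Type IIb-like nuclei less that in Type IIa/IIx-like nuclei was -0.13, and the difference was not tested.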

How the results depend on the processing

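No paired analysis was possible because the replicate numbers follow accession order and pair no animals; library set, or library, was a term of each fit instead. Depth limits Gpx1 and Prdx3 most, with 1667 and 2736 UMIs over 8 libraries, and the second set in rare classes. Of the single values recomputed, 769 kept direction and side of the threshold, 69 reversed, 22 lost and 2 gained the threshold, and the cause of each was not tested.

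Of the 10 member calls between fibre types, the number was 0 with the second set alone and 6 to 10 with each library left out (6 without Old replicate 1). List calls for Myh1 (12) became 0 with the second set alone and 7 to 14 with each library left out (7 without Sedentary replicate 1), for Myh2 (22) 3 and 14 to 26 (14 without Old replicate 1), and for Myh7 (18) 2 and 7 to 18 (7 without Sedentary replicate 1). Within classes 0 list genes were called, and 0 to 1 with each library left out, the 1 being Ucp3 in Type IIa/IIx-like nuclei between Running and Sedentary without Sedentary replicate 2.

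Between Old and Young, library size only gave Cat 0.25, Txnrd1 0.000859 and Nfe2l2 0.17. With each library left out the ranges were -0.63 to 0.34 for Cat, -1.39 to 0.094 for Gpx1, -1.093 to 0.38 for Nfe2l2, -1.54 to 0.075 for Park7 and -1.23 to 0.24 for Txnrd1. Between Running and Sedentary, Sod2 was -0.020 with library size only and -0.000718 with no set term, where Gpx1 was 0.016. Txnrd1 and Nfe2l2 were 0.016 and 0.016 with RLE scaling and with DESeq2, 0.041 and 0.077 with only the 4 libraries, and 0.0861 and 0.025 with the gene length correction. The ranges with each library left out were -1.07 to 0.56 for Gpx1, -0.46 to 0.91 for Gpx3, -0.13 to 0.70 for Keap1, -0.45 to 0.58 for Nfe2l2, 0.46 to 1.41 for Park7, -0.025 to 0.76 for Sod1, -0.16 to 0.24 for Sod2 and -0.36 to 0.27 for Txnrd1.

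Among members not called between fibre types, Sod1 was 0.0057 (DESeq2) and 0.17 (10x alone) for Myh2, and 0.061 (RLE), 0.055 (DESeq2) and 0.12 (10x alone) for Myh7. Gpx1 for Myh7 was 0.081 (RLE), 0.048 (DESeq2) and 0.14 (stricter myosin rule). Prdx3 was -0.027 for Myh1 with no filter and 0.12 (10x alone) and 0.24 (stricter rule) for Myh2, and Txnrd1 for Myh1 was 0.000153 (stricter rule). With no filter, Sod2 was -0.16 and Keap1 -0.16 for Myh7. The second set alone gave Sod2 -0.010, Gpx3 0.18, Nfe2l2 -0.45 and Keap1 -0.17 for Myh7, and Gpx3 0.23 and Keap1 0.62 for Myh1. With each library left out the ranges for Myh1 were -0.13 to 0.36 (Gpx1), -0.13 to 0.047 (Keap1) and -0.12 to 0.15 (Prdx3), for Myh2 -0.51 to 0.018 (Prdx3) and -0.17 to 0.066 (Sod1), and for Myh7 -0.65 to 0.30 (Gpx1), -0.10 to 0.047 (Keap1), -0.66 to 0.0856 (Sod1) and -0.13 to 0.085 (Sod2).

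Over all genes, calls between Running and Sedentary were 82 with only the 4 libraries and up to 418 without Sedentary replicate 2; between Old and Young they were 4 and up to 8. In Type IIb-like nuclei the 83 calls by age became 13 with DESeq2, 0 with no set term, 50 with coarser clusters and 0 to 356 with each library left out. In Type IIa/IIx-like nuclei the 1 call became 81 with no filter, 21 with DESeq2 and up to 63. By running, the 20 calls in Type IIb-like nuclei became 8 with RLE scaling, 0 with DESeq2 and with no set term, 6 with coarser clusters and 0 to 121 with each library left out, and the 0 in Type IIa/IIx-like nuclei became 42 with no filter and up to 106. The 25 calls in fibro-adipogenic progenitor-like nuclei became 0 with DESeq2 and with no set term and 0 to 62 with each library left out. The 5 in neuromuscular junction-like nuclei became 25 with no filter, 1 with DESeq2 and 0 to 93, and the 0 at the myotendinous junction became 2 by age and 8 by running with no filter, and up to 27 and 45 with a library left out. Between fibre types the second set alone gave 131, 367 and 217 calls, and the 2705 calls for Myh7 became 1666 without Old replicate 1 and 1344 without Sedentary replicate 1.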
